A study of Mus musculus with 78 samples.

Results

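ORR1 repeats are long terminal repeat (LTR) retrotransposons of the mouse genome. Their copies were taken here as the rows of the 4-cell and 8-cell repeat tables whose repeat name starts with ORR1, which are the LTRs of subfamilies ORR1A to ORR1G and their internal parts (names ending in -int). The 4-cell table listed 10603 such copies among 278683 repeat copies (3.80%), and the 8-cell table listed 10924 among 327627 (3.33%). Over both tables there were 16516 ORR1 copies among 461206 repeat copies.

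ORR1 belongs to the MaLR group of the ERVL class, elements that carry no functional genes of their own and depend on proteins made elsewhere for their movement. An intact element has an LTR at either end of an internal part, and many copies have shrunk to a lone LTR. The LTR holds promoter and polyadenylation signals, and MaLR LTRs are known to start transcripts in mouse oocytes and early embryos. ORR1A is generally taken as the youngest subfamily and the later letters as older ones.

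Single blastomeres were sequenced with Smart-seq2 from embryos of a cross of mice with the CAG-Brainbow2.1 reporter at Gt(ROSA)26Sor (strain suffix Cle/J) and Tg(CAG-cre/Esr1*)5Amc/J mice, so that embryos of both stages carried 1 copy of Brainbow 2.1 and 1 of a tamoxifen-dependent Cre driven by the CAG promoter. The embryos were collected at the 2-cell stage, 46 h after hormone injection, and all received 4-hydroxytamoxifen for 2 h before culture to 4 or 8 cells. The deposited tables held 24 blastomeres of the 4-cell stage and 26 of the 8-cell stage. The column names match no sample label and name no embryo or lineage, and no column was assigned to an embryo by its order or its total, so each stage counted as 1 sample. Blastomeres of 1 embryo were not set apart, blastomeres were not replicates, and no difference between stages was tested.

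The totals of fragments (read pairs) that FPKM values were scaled to were recovered from those values. They lay between 6884378 and 16904615 per blastomere at the 4-cell stage and between 2341593 and 21782101 at the 8-cell stage. These totals are not the numbers of read pairs sequenced. Of the 8 blastomere markers Dppa3, a maternal chromatin factor, and Tead4, a trophectoderm regulator, were above 1 FPKM in all 50 blastomeres, and 6 of the 8 at the 4-cell stage passed that level in at least 12 of the 24 blastomeres, as did 4 of the 8 in at least 13 of the 26 blastomeres of the 8-cell stage. None of the 3 blood markers was listed. Of the 6 cumulus and granulosa markers 3 and 2 were listed, none above 1 FPKM in that many blastomeres, and the highest value was that of Cyp19a1 (aromatase), 3.06 FPKM in the 4-cell blastomere S18.

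The 4-cell blastomeres S18 and S20 stood apart from the others. ORR1 copies held 28.4% of all repeat fragments in S18 and 21.04% in S20, whereas the next highest blastomere was at 10.1%. S18 and S20 also had the fewest genes above 1 FPKM among 4-cell blastomeres, 3009 and 3699, against a median of 7155, and their part in the results was not tested. The main stage comparisons are also given without them.

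The share of annotated ORR1 copies that had any fragment depended on the subfamily. The row names number the copies of a repeat within each chromosome, so the highest numbers, summed over chromosomes, give the least number of annotated copies. Of at least 2121 numbered ORR1A0 LTRs, 1256 (59.2%) were above 0 in at least 1 blastomere of the 4-cell stage and 859 (40.5%) in at least 1 of the 8-cell stage. The shares were 29.2% and 19.1% of 3971 ORR1A1 LTRs, 9.68% and 9.30% of 14158 ORR1A2 LTRs, and 2.66% and 3.78% of 21845 ORR1E LTRs. Of the 3251 ORR1A0 and ORR1A1 copies listed at the 4-cell stage, internal parts included, 198 were above 0 in S18 alone and 92 in S20 alone. Over all repeats 5.86% and 6.89% of the numbered copies were listed. ORR1A0 and ORR1A1 LTRs were thus several times above the level of all repeats and lower at the 8-cell stage, while each of the LTR names from ORR1B1 to ORR1G was below that level at both stages and higher at the 8-cell stage.

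Internal parts were listed more often than the LTRs of the same name in ORR1A0, ORR1A1 and ORR1A2. For ORR1A0, 351 of 449 internal parts (78.2%) were above 0 in 4-cell blastomeres and 306 (68.2%) in 8-cell blastomeres. For ORR1A1 the shares were 58.8% and 38.2% of 825 internal parts. Internal parts are longer, with a median of 1760 bases for ORR1A0-int against 345 for the ORR1A0 LTR among copies above 0 in at least 3 blastomeres. A longer copy gathers more fragments at the same level, but the part of length in this difference was not tested.

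**Figure D1:**
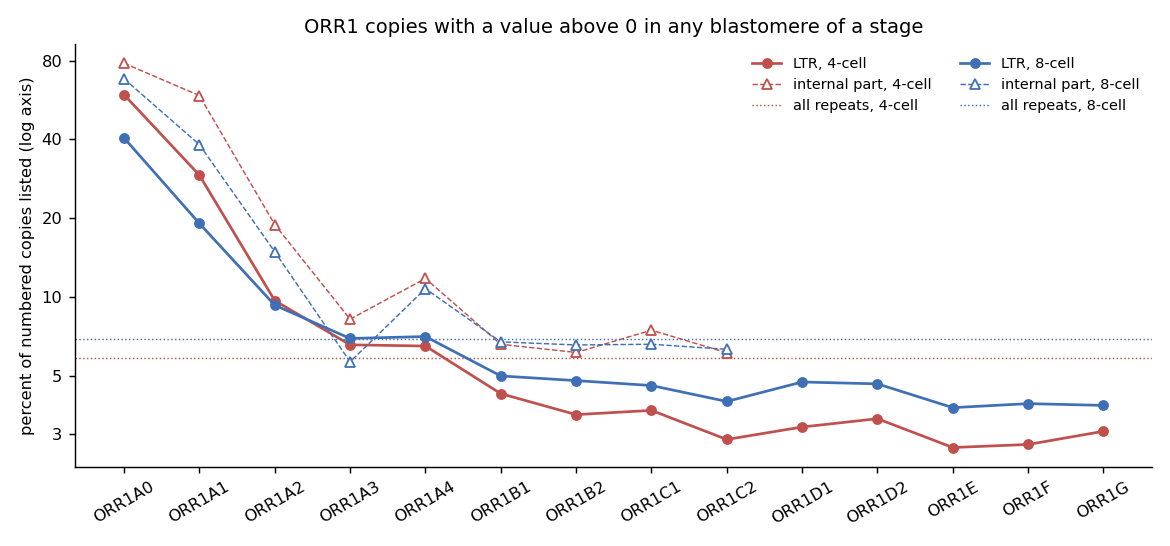
Percent of numbered ORR1 copies that had a value above 0 in at least 1 blastomere of the 4-cell (red) or 8-cell stage (blue), by repeat name, on a log axis. Filled circles are LTRs, open triangles internal parts (drawn for ORR1A0 to ORR1C2) and dotted lines all repeats, and the ORR1A0 LTR lies at 59.2% (4-cell) and 40.5% (8-cell) and the ORR1E LTR at 2.66% and 3.78%.

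In a single 4-cell blastomere 767 to 2224 ORR1 copies were above 0, with a median of 1484.5. In a single 8-cell blastomere the number was 238 to 2130, with a median of 1124.5. As a share of all repeat copies above 0 this was 2.60% to 8.33% with a median of 3.64% at the 4-cell stage, and 2.30% to 3.45% with a median of 2.99% at the 8-cell stage. The ranges overlapped, with 16 of the 24 4-cell blastomeres above every 8-cell blastomere. Without S18 and S20 the 4-cell share ran from 2.60% to 4.87%, with a median of 3.57%. At a matched depth of 900000 repeat fragments per blastomere, which left out the 8-cell blastomere S57, the median shares were 3.70% and 3.03%.

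The higher share at the 4-cell stage was largest in ORR1A0 and ORR1A1. ORR1A0 and ORR1A1 made up 1.05% to 5.98% of the repeat copies above 0 in a 4-cell blastomere, median 1.45%, and 0.571% to 1.25% in an 8-cell blastomere, median 0.966%. The highest 4-cell share was 3.06% and the median 1.42% when S18 and S20 were left out. All 24 4-cell blastomeres lay above the 8-cell median, and 20 of them above every 8-cell blastomere. ORR1A2 had medians of 0.627% and 0.453%, with 15 of the 24 4-cell blastomeres above every 8-cell blastomere. The medians of ORR1A3 were 0.144% and 0.118% and those of ORR1A4 0.217% and 0.178%, with 2 and 0 such blastomeres. ORR1B to ORR1G together lay at 0.549% to 1.496%, median 1.04%, in 4-cell blastomeres and at 0.919% to 1.41%, median 1.21%, in 8-cell blastomeres, where 4 of the 24 4-cell blastomeres were above the 8-cell median. Within this group ORR1B had the higher median at the 4-cell stage (0.332% and 0.314%), with 14 of the 24 4-cell blastomeres above the 8-cell median, while the medians of ORR1C to ORR1G were each higher at the 8-cell stage.

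Shares of repeat fragments weight each copy by its number of fragments. ORR1 held 3.76% to 28.4% of the repeat fragments of a 4-cell blastomere, median 4.97%. In 8-cell blastomeres the share was 3.06% to 5.06%, median 3.70%. Without S18 and S20 the highest 4-cell share was 10.1% and the median 4.72%. ORR1A0 held a median of 1.08% and 0.582% at the 4-cell and 8-cell stages, ORR1A1 0.985% and 0.637%, and ORR1A2 1.67% and 1.37%. The medians for ORR1B were 0.213% and 0.199%, for ORR1C 0.158% and 0.151%, and for ORR1D 0.222% and 0.233%. Those for ORR1E were 0.0847% and 0.115%, for ORR1F 0.0720% and 0.101%, and for ORR1G 0.0392% and 0.0425%. The medians of ORR1A0 to ORR1A2, ORR1B and ORR1C were lower at the 8-cell stage and those of ORR1D to ORR1G higher, with overlapping ranges in each. ORR1C thus had the higher share of copies at the 8-cell stage and the higher share of fragments at the 4-cell stage.

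Internal parts made up 48.4% of ORR1 fragments at the median of the 4-cell stage and 39.9% at that of the 8-cell stage. ORR1A0-int alone held 0.312% to 11.4% of repeat fragments at the 4-cell stage, median 0.849%, and 0.106% to 1.12% at the 8-cell stage, median 0.418%. Its highest 4-cell share was 3.67% and its median 0.822% without S18 and S20. The ORR1A2 LTR had nearly equal medians at the stages, 1.10% and 1.10%.

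**Figure D2:**
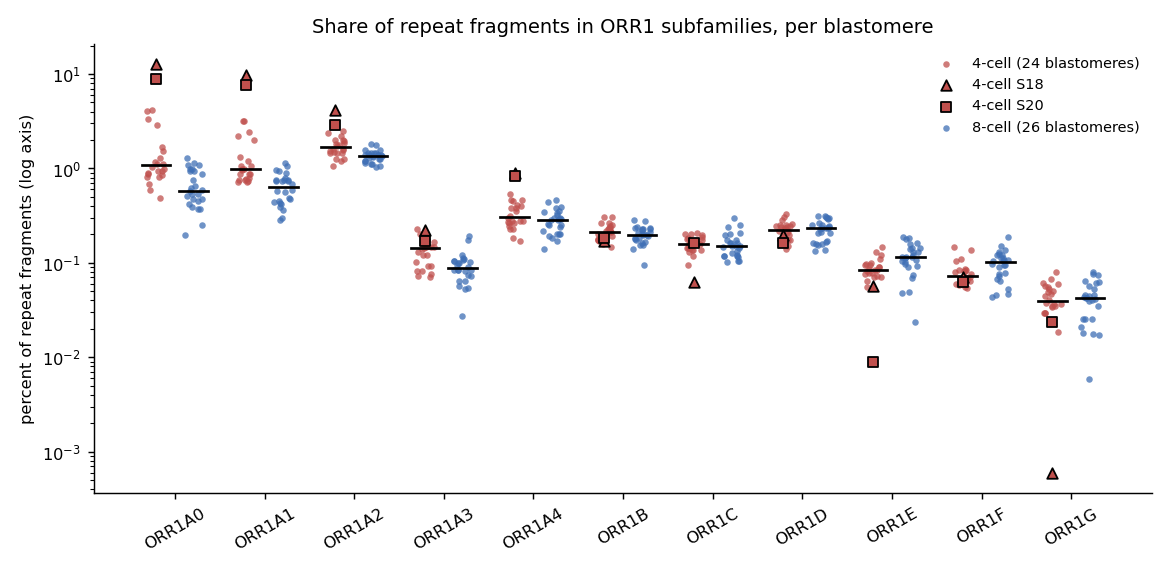
Percent of the repeat fragments of each blastomere that lay in copies of each ORR1 subfamily (LTRs and internal parts together), on a log axis. Points are 24 blastomeres of the 4-cell stage (red) and 26 of the 8-cell stage (blue), bars are medians, and the triangle and square mark S18 and S20, which reach 12.7% and 8.93% for ORR1A0 and lie within or below the other blastomeres for ORR1B to ORR1G.

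Within ORR1, the shares of ORR1A0, ORR1A1, ORR1A2 and ORR1A4 were higher in S18 and S20 than in every other 4-cell blastomere. For ORR1A3 they were 0.225% and 0.170%, below the 0.231% of S17. ORR1A0 and ORR1A1 together held 22.5% of repeat fragments in S18 and 16.6% in S20, against a highest value of 7.32% among the other 22 blastomeres of the 4-cell stage. ORR1A2 held 4.12% and 2.86%, where the highest of the others was 2.51%. The ORR1A2 internal parts held 3.21% and 2.05%, where the highest of the others was 1.24%. The highest ORR1A2 LTR share, 1.67%, was in another blastomere. ORR1B to ORR1G held 0.561% and 0.603%, below the lowest value of 0.668% among the others. The MT2 and MERVL group, all repeat names that start with MT2 or MERVL, held 7.64% and 6.49%, where the highest of the others was 6.94%. MERVL is known for its activity at the 2-cell stage, but it was not measured apart from the rest of this mixed group. MT-type MaLR LTRs held 6.07% and 4.30%, where the highest of the others was 4.65%. By share of the repeat copies above 0, both blastomeres were above the other 22 in 3 of these groups, with 8.65% and 9.55% for MT2 and MERVL (others up to 5.78%), 14.6% and 14.1% for MT-type MaLR (up to 9.70%) and 5.98% and 5.34% for ORR1A0 and ORR1A1 (up to 3.06%). S18 and S20 had the fewest repeat copies above 0 at the 4-cell stage, 26703 and 22238. By number of copies, both were above the others for ORR1A0 and ORR1A1 (1596 and 1187, others up to 1094). S20 was below S19 for MT2 and MERVL (2123 and 2147) and below S21 for MT-type MaLR (3146 and 3469).

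Many of the copies concerned were shared between the 2 blastomeres. Of ORR1A0 and ORR1A1 copies, 880 were above 0 in both, which is 55.1% of the 1596 in S18 and 74.1% of the 1187 in S20. Over all repeat copies, a 4-cell blastomere shared a median of 38.2% and at most 55.9% with another. For MT2 and MERVL the highest such share was 82.2%. The share of S18 and S20 themselves over all repeats is not given here. Of the 290 ORR1A0 internal parts above 0 in S20, 281 were also above 0 in S18, which had 332. Among the other 22 blastomeres, at least 1 had a value above 0 for 282 of the 290 and for 320 of the 332. In S20, 11 of the 290 copies held 50% of the ORR1A0-int fragments, and in S18 13 of the 332 did. The top copy alone held 11.9% in S20 and 8.11% in S18. Of ORR1B to ORR1G copies, 18 of the 122 in S20 and of the 271 in S18 were shared.

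Copies are called widely seen below where they were above 0 in at least 12 of the 24 4-cell blastomeres or 13 of the 26 8-cell blastomeres. Among the 704 ORR1 copies widely seen at the 4-cell stage, 323 (45.9%) had their highest 4-cell value in S18 or S20. The share was 20.7% over all widely seen repeat copies. It held for 261 of 421 ORR1A0 and ORR1A1 copies, and the share was 10.3% for ORR1B to ORR1G, 45.6% for MT-type MaLR and 49.2% for MT2 and MERVL.

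Most listed ORR1 copies were found in few blastomeres. Of the listed copies 5554 (52.4%) were above 0 in exactly 1 blastomere of the 4-cell stage, where all repeats gave 54.8%. For the 8-cell stage these were 6822 ORR1 copies (62.4%) and 59.8%. At the 4-cell stage 704 of the listed ORR1 copies (6.64%) were widely seen, and 7.21% of all listed repeat copies were. Without S18 and S20, 706 ORR1 copies were above 0 in at least 11 of the 22 blastomeres left. At the 8-cell stage the number was 337 (3.08%), and the share over all repeat copies was 4.59%. Of the ORR1A0 internal parts listed, 134 (38.2%) were widely seen in 4-cell blastomeres and 45 (14.7%) in 8-cell blastomeres.

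The widely seen copies of the 8-cell stage were mostly among those of the 4-cell stage. A total of 288 copies were widely seen at both stages, which is 40.9% of the 4-cell and 85.5% of the 8-cell number. Over all repeats these shares were 58.3% and 77.95%. For ORR1A0 and ORR1A1 the shared 133 copies were 31.6% of the 4-cell and 94.3% of the 8-cell number. For ORR1B to ORR1G the shared 72 copies were 61.5% and 77.4%. Another 25 ORR1 copies were widely seen at the 4-cell stage and above 0 in at most 2 of the 8-cell blastomeres, which is 3.55% of the 704, near the 2.86% over all repeats (575 copies). The reverse was seen in 0 ORR1 copies and in 1.91% of the widely seen 8-cell copies of all repeats (287 copies).

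A 4-cell blastomere shared a median of 44.1% of its ORR1A0 and ORR1A1 copies above 0 with another 4-cell blastomere, and 23.9% of its ORR1B to ORR1G copies. The corresponding medians at the 8-cell stage were 33.1% and 18.8%. For all repeats they were 38.2% and 33.6%. These shares were not matched for depth.

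For stage means, copies listed in both tables (5011 ORR1 copies) and above 0 in at least 10 of the 50 blastomeres were compared, which left 1620 of the 16516 ORR1 copies. The mean FPKM (fragments scaled to the length of the copy in kilobases and to the fragment total of the blastomere) was at least 2 times higher at the 4-cell stage in 895 of them (55.2%) and in 186 (11.5%) it was at least 2 times higher at the 8-cell stage. Over all 44807 repeat copies compared, 41.2% were at least 2 times higher at the 4-cell stage and 19.1% were so at the 8-cell stage. The median log2 ratio of the 8-cell over the 4-cell mean was -1.22 for ORR1 and -0.56 for all repeats. Without S18 and S20 the ORR1 shares were 47.7% and 11.7%, beside 40.04% and 19.6% for all repeats.

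The subfamilies differed along the same line. In ORR1A0, 345 of 490 copies (70.4%) were higher at the 4-cell stage by this measure and 34 (6.94%) were lower. In ORR1A1 the numbers were 261 and 23 of 378, and in ORR1A2 140 and 25 of 258. In ORR1B to ORR1G, 87 of 341 copies (25.5%) were higher at the 4-cell stage and 80 (23.5%) were lower, with a median log2 ratio of -0.11. That balance depended on the average, since by medians over blastomeres 72 (21.1%) were at least 2 times higher at the 4-cell stage and 28 (8.21%) lower. It was 89 and 55 of 288 copies when the columns named NA were left out. Without the filter on blastomeres it was 548 and 574 of 1764 copies. With values divided by each blastomere's median over copies above 0 in every blastomere, it was 84 and 84 of 341. The share of ORR1A0 and ORR1A1 copies also depended on the average. By means 69.8% were higher at the 4-cell stage and 6.57% lower. By medians over blastomeres these shares were 44.0% and 1.84%, beside 28.1% and 11.9% for all repeats. Without S18 and S20, by means, 58.4% of the ORR1A0 and ORR1A1 copies and 25.4% of the ORR1B to ORR1G copies were higher at the 4-cell stage. MT-type MaLR (71.5% and 5.55%) and MT2 and MERVL copies (70.8% and 5.21%) had shares close to those of ORR1A0, and MLT1 and MST copies, old MaLR elements, had 15.2% and 23.8%.

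**Figure D3:**
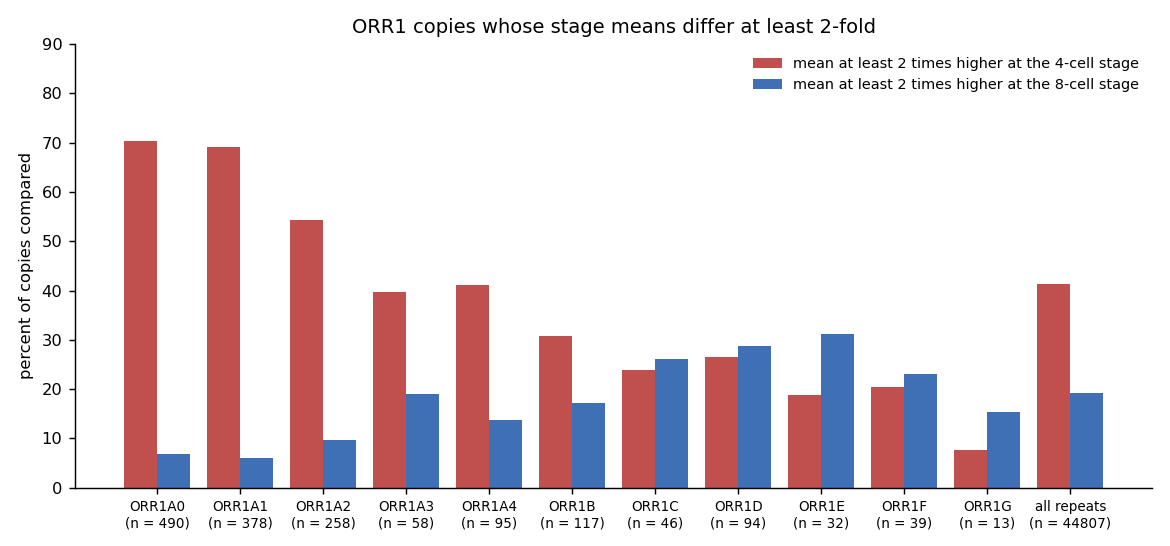
Percent of the compared ORR1 copies of each subfamily whose mean FPKM was at least 2 times higher at the 4-cell stage (red) or at the 8-cell stage (blue), beside all repeat copies. The number of copies compared stands under each name, and the red bars stand at 70.4% in ORR1A0, 54.3% in ORR1A2 and 30.8% in ORR1B, with 25.5% (red) and 23.5% (blue) over ORR1B to ORR1G together.

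The strongest ORR1 copies were few and largely common to the stages. The 10 copies with the highest median value held 20.6% of ORR1 fragments in the median 4-cell blastomere and 26.4% in the median 8-cell blastomere. Of these 10 copies 9 were the same at both stages, among them the first 6. In S18 and S20 the 10 copies held 1.39% and 2.49%.

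At the 4-cell stage the first copy was ORR1A2 number 375 of chromosome 9, with 342.7 to 1500 FPKM, median 1072. At the 8-cell stage it had 376.9 to 1598 FPKM, median 910.0. ORR1A2 number 371 of chromosome 9 had 445.8 to 1884 FPKM, median 1055, at the 4-cell stage, and 823.0 to 1852 FPKM, median 1531, at the 8-cell stage, where it was the first. Both were above 340 FPKM in all 50 blastomeres, and their values at the stages overlapped.

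ORR1A2 number 373 of chromosome 9 varied far more between blastomeres. It had 1.16 to 1309 FPKM, median 207.4, at the 4-cell stage and 0.246 to 821.4 FPKM, median 323.8, at the 8-cell stage. These 3 copies of chromosome 9 have the same recovered length of 323 bases. Together they held 13.8% of all ORR1 fragments and 65.1% of ORR1A2 LTR fragments at the 4-cell median, and 19.9% and 73.2% at the 8-cell median. In S18 they held 0.855% of ORR1 fragments.

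ORR1C1 number 315 of chromosome 4, with a length of 59 bases, had 309.9 to 1534 FPKM, median 1024, at the 4-cell stage and 382.8 to 1224 FPKM, median 643.8, at the 8-cell stage. ORR1A1 number 140 of chromosome 7, of 105 bases, had 178.0 to 1556 FPKM, median 830.5, and 199.2 to 1165 FPKM, median 422.8. Both copies were above 0 in all 50 blastomeres, with higher medians at the 4-cell stage and overlapping ranges. FPKM divides by the length of a copy, and these copies are short. Their median fragments were 818 and 1044.5 at the 4-cell stage and 660.5 and 774 at the 8-cell stage. ORR1A2 number 373, lower by median FPKM, had 904.5 and 1707.5. The part of length in their rank was not tested.

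ORR1A0 number 55 of chromosome 9 was the strongest ORR1A0 copy. It had 0 to 265.7 FPKM, median 128.2, at the 4-cell stage, where it was above 0 in 23 of 24 blastomeres, and 31.7 to 223.8 FPKM, median 123.9, at the 8-cell stage. ORR1A2 number 226 of chromosome 12 had medians of 123.4 and 85.7 FPKM in 4-cell and 8-cell blastomeres. Those of ORR1A4 number 17 of chromosome 8 were 94.1 and 80.6 FPKM. Among the older subfamilies, ORR1E number 233 of chromosome 18 had medians of 103.9 and 90.6 FPKM and was above 0 in 22 and 24 blastomeres. ORR1G number 186 of chromosome 9 had medians of 78.7 and 41.9 FPKM in 21 and 20 blastomeres, the most of any ORR1G copy at either stage.

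Altogether 29 ORR1 copies were above 0 in every 4-cell blastomere, 21 in every 8-cell blastomere and 12 in all 50. Over all repeats these numbers were 1391, 1242 and 650. Those 12 were 6 ORR1A2 copies, 2 ORR1A4 copies, 2 ORR1F copies, the ORR1A1 copy and the ORR1C1 copy, and all were LTRs. ORR1F number 904 of chromosome 3 had 3.74 to 44.3 FPKM, median 16.5, at the 4-cell stage and 0.870 to 9.005 FPKM, median 2.87, at the 8-cell stage. ORR1F number 80 of chromosome 14 had 0.748 to 15.2 FPKM, median 6.87, and 3.75 to 16.8 FPKM, median 8.69. So 1 of these ORR1F copies had the higher median at the 4-cell stage and the other at the 8-cell stage, each with overlapping ranges.

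The ORR1B and ORR1D copies above 0 in the most blastomeres of a stage also included copies of lower level. ORR1B1 number 548 of chromosome 9 was above 0 in all 24 4-cell blastomeres, with a median of 24.7 FPKM, and in 24 of 26 8-cell blastomeres, with a median of 25.9 FPKM. The internal part ORR1B2-int number 67 of chromosome 5 was above 0 in 21 and in 26, with medians of 12.8 and 12.04 FPKM. ORR1D1 number 910 of chromosome 2 was above 0 in 21 and in 26, with medians of 2.17 and 2.25 FPKM.

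The 5 copies with the largest ratio of mean FPKM toward the 4-cell stage, among widely seen copies, were all internal parts of ORR1A0. They were chosen for this ratio and were widely seen at the 4-cell stage only. Their ratios and intervals are thus descriptions and test no difference between the stages. ORR1A0-int number 18 of chromosome 4 had 0 to 202.2 FPKM, median 0.599, in 4-cell blastomeres and 0 to 0.0683 FPKM, median 0, in 8-cell blastomeres. It was above 0 in 18 of 24 and 5 of 26 blastomeres. Its fragments summed to 6126 at the 4-cell stage, of which 3292 were in S18, and to 6 at the 8-cell stage. Scaled to the fragment totals of the stages this was a ratio of 1429 (95% exact interval 656.3 to 3897, for counting error only). Without S18 and S20 the ratio was 713.8.

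ORR1A0-int number 28 of chromosome 1 had 2325 and 3 fragments, a ratio of 1085 (370.8 to 5265), or 702.0 without S18 and S20. Of the 2325, 928 were in S20 and 687 in S21. This copy was above 0 in 12 of 24 4-cell blastomeres, with a median of 0.0179 FPKM, and in 3 of 26 8-cell blastomeres. ORR1A0-int number 4 of chromosome 19 summed to 12612 fragments in 20 of 24 4-cell blastomeres and 30 fragments in 10 of 26 8-cell blastomeres, a ratio of 588.6 (412.1 to 872.7). Its ratio was 347.8 without S18 and S20, 386.9 without S21 and 893.7 without the 8-cell blastomere S62. ORR1A0-int number 7 of chromosome 4 had 3172 and 11 fragments, a ratio of 403.7 (225.3 to 809.5), or 432.9 without S18 and S20, with its highest value, 39.5 FPKM, in S4. ORR1A0-int number 19 of chromosome 5 rested on 1 blastomere, since 2113 of its 2158 4-cell fragments were in S20, and the ratio of 431.6 (209.1 to 1075) was 8.42 without S18 and S20. Each of these 5 copies was at 0 in some blastomeres of both stages, so the ranges overlapped.

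Toward the 8-cell stage the 5 copies were LTRs of different subfamilies. ORR1A2 number 568 of chromosome 3 had 0 to 2.52 FPKM, above 0 in 4 of 24 4-cell blastomeres, and 0 to 51.3 FPKM, median 0.566, above 0 in 17 of 26 8-cell blastomeres. Its fragments summed to 16 and 771, a scaled ratio of 34.4 toward the 8-cell stage. The ratio was 21.1 without S53, which held 318 of the 771, and 105.5 without the 4-cell blastomere S3, which held 11 of the 16.

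ORR1D2 number 75 of chromosome 17 was above 0 in 4 and 20 blastomeres, with a highest value of 21.3 FPKM at the 4-cell stage and 202.0 FPKM at the 8-cell stage. Its ratio was 22.02, or 31.9 without the 4-cell blastomere S22 and 17.5 without the 8-cell blastomere S54. ORR1F number 1014 of chromosome 13 was above 0 in 4 and 17, with 8-cell values of 0 to 468.0 FPKM, median 28.2. Its ratio was 9.91, or 15.05 without the 4-cell blastomere S16 and 7.96 without the 8-cell blastomere S58. ORR1B2 number 279 of chromosome 3 had a ratio of 10.97, or 22.8 without the 4-cell blastomere S4 and 9.05 without S54. ORR1C1 number 166 of chromosome 15 had a ratio of 8.40, or 10.3 without the 4-cell blastomere S6 and 7.66 without S54. All 5 were chosen for this ratio and were widely seen at the 8-cell stage only. Their 4-cell median of 0 and their ratios are thus descriptions, and their ranges overlapped.

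ORR1D1 number 570 of chromosome 7, the widest seen ORR1D copy at the 4-cell stage, had 0 to 254.6 FPKM, median 113.8, in 4-cell blastomeres and 0 to 122.9 FPKM, median 26.4, in 8-cell blastomeres. It was above 0 in 23 of 24 and 21 of 26 blastomeres. ORR1A2 number 477 of chromosome 13, the tenth by median at the 8-cell stage, went the other way, with medians of 26.1 FPKM in 4-cell and 70.7 FPKM in 8-cell blastomeres and overlapping ranges.

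**Figure D4:**
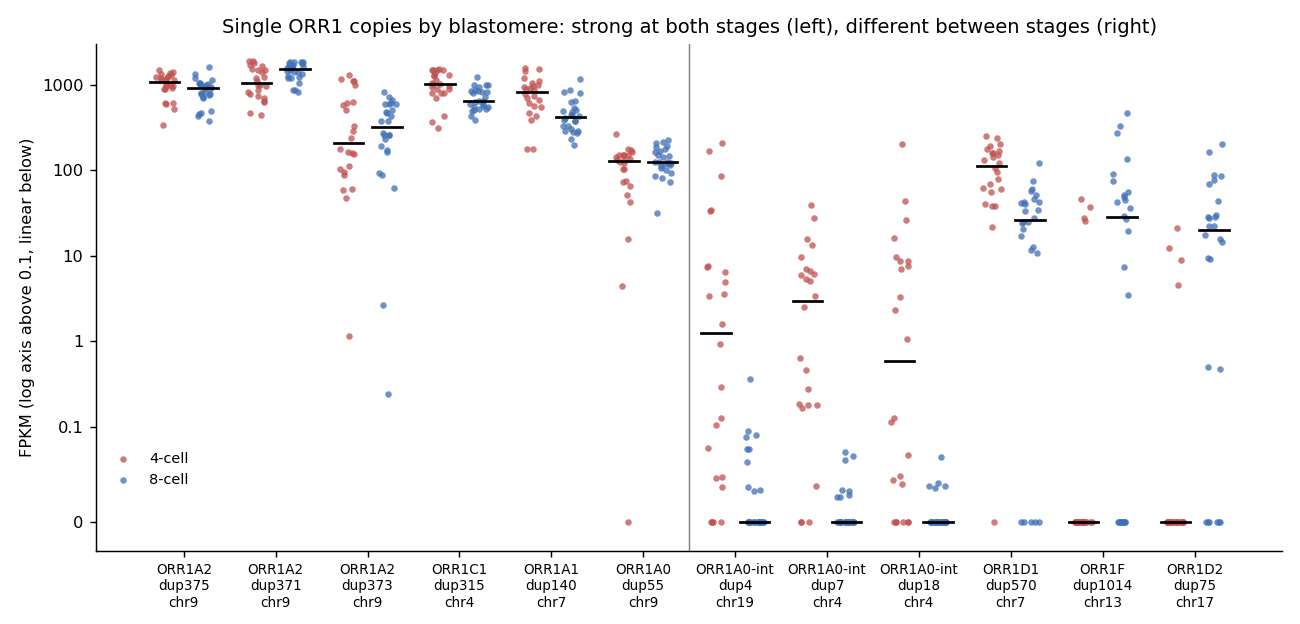
FPKM of 12 ORR1 copies in each 4-cell (red) and 8-cell blastomere (blue), with bars at the medians, on an axis that is linear below 0.1 and logarithmic above, where "dup" precedes the number of a copy. The 6 copies on the left are the first 6 by median value at both stages, and the copies on the right include ones that differ between the stages, such as ORR1A0-int number 18 of chromosome 4, whose highest values are 202.2 FPKM in 4-cell and 0.0683 FPKM in 8-cell blastomeres.

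To describe which genes varied along with the copies, the gene most like each copy was looked up. For the 288 ORR1 copies widely seen at both stages, Pearson's r of log2(FPKM + 1) was computed over the 24 and over the 26 blastomeres against 8092 and 7521 genes above 0 in at least 12 and 13 blastomeres. This rule was chosen after the values of the strongest copies had been seen. A copy and a gene share the library and the total of each blastomere, and fragments of a copy that lies in an exon can be counted in both, so the values of r are descriptions.

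In 21 of the 288 ORR1 copies (7.29%) the most alike gene was the same at both stages and lay on the chromosome of the copy. The share was 14.2% over 11718 repeat copies of all kinds. It was 2 of 133 (1.504%) for ORR1A0 and ORR1A1 and 13 of 72 (18.1%) for ORR1B to ORR1G, which included all 5 ORR1E copies compared. Only 1 of the 97 internal parts had such a gene. With r of at least 0.9 at both stages the numbers were 16 of 288 (5.56%) for ORR1 and 7.44% over all repeat copies.

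The 3 strong ORR1A2 copies of chromosome 9 each had a gene of the Trim43 group, tripartite motif genes known for their expression in preimplantation embryos, as the most alike gene. For number 371 it was Trim43a (mm10, chr9:88580891-88588824), with r of 0.992 and 0.984 at the 4-cell and 8-cell stages. For number 373 it was Trim43c (chr9:88839164-88848190), with r of 0.995 and 0.930. For number 375 it was Trim43b (chr9:89084624-89092835), with r of 0.984 and 0.985. The order of the copy numbers is the order of the genes along the chromosome. The next most alike gene had r of 0.716 to 0.901 over these 3 copies and both stages. Trim43a, Trim43b and Trim43c are similar genes, and reads that align to several of them were not counted.

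The levels of copy and gene differed more for Trim43c than for the other 2 genes. Trim43a had medians of 935.0 and 1379 FPKM at the 4-cell and 8-cell stages, where its copy had 1055 and 1531 FPKM. Trim43b had 844.4 and 693.2 FPKM, where its copy had 1072 and 910.0 FPKM. Trim43c had 91.9 and 159.0 FPKM, where its copy had 207.4 and 323.8 FPKM, and its lowest values were 1.66 and 0.320 FPKM.

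Of the other strong copies, ORR1C1 number 315 was most like Magoh (chr4:107879755-107887424), a core part of the exon junction complex, with r of 0.976 and 0.982. ORR1A1 number 140 was most like Zfand6 (chr7:84615045-84690016), r of 0.98 at both stages, and ORR1A4 number 17 most like Tnfsf13b (chr8:10006229-10036000), the cytokine BAFF, r of 0.977 and 0.934. ORR1G number 186 was most like Cmtm6 (chr9:114731157-114749359), a membrane protein that stabilises PD-L1, r of 0.959 and 0.989. ORR1E number 233 of chromosome 18 was most like Ino80c, a subunit of the INO80 chromatin remodeller, r of 0.877 and 0.808. Weaker copies with such a gene included ORR1E number 1349 of chromosome 5 with Nudt1, which clears oxidised nucleotides (r of 0.974 and 0.953), and ORR1A0 number 53 of chromosome 2 with Spi1, the transcription factor PU.1 (r of 0.991 and 0.880). ORR1A0 number 55, ORR1A2 number 226 and ORR1D1 number 570 had no gene that met the rule.

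**Figure D5:**
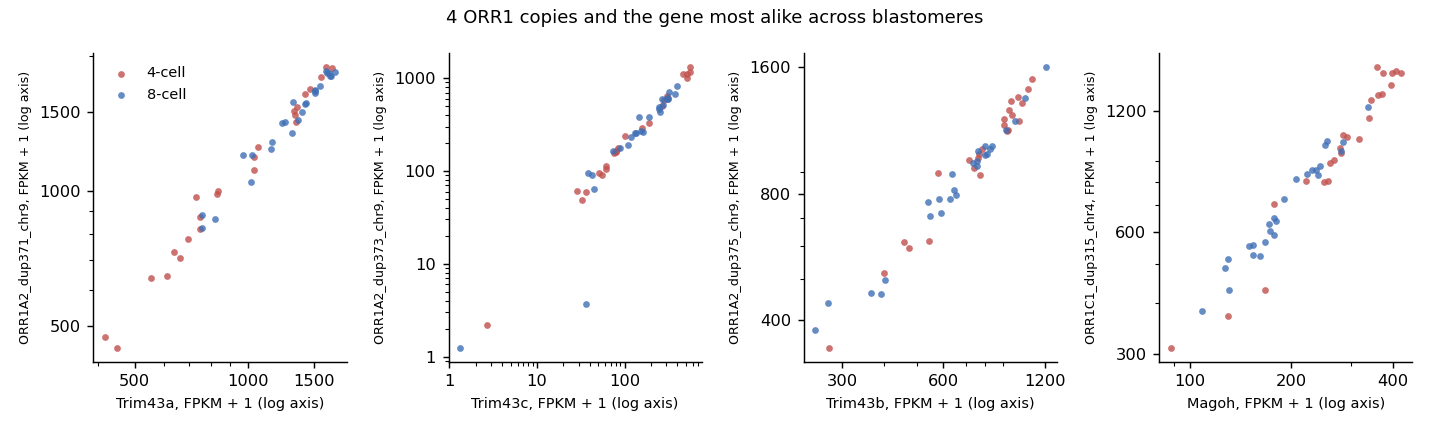
FPKM + 1 of 4 ORR1 copies (vertical) against that of the gene most alike across blastomeres (horizontal), both on log axes, for 24 blastomeres of the 4-cell stage (red) and 26 of the 8-cell stage (blue). The points of both stages fall along 1 band in each panel, with r of 0.930 to 0.995 within a stage.

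Among 20 genes known to control LTR elements, 17 were above 1 FPKM in at least 12 of the 24 blastomeres of the 4-cell stage and 17 in at least 13 of the 26 of the 8-cell stage. Over the 13604 genes listed in both tables the shares were 50.6% and 46.5%. Of the 17, which were the same genes at both stages, the median was higher at the 8-cell stage in 5 and at the 4-cell stage in 12, where 44.4% and 55.6% of the 7248 genes at that level were. In S18 and S20 5 of the 17 were above the 4-cell median in both and 9 below it in both, where 11.2% and 58.8% of the 7248 genes were. Trim28, the corepressor that silences LTR elements, had medians of 59.8 FPKM in 4-cell and 120.9 FPKM in 8-cell blastomeres, and 69.2 and 66.4 FPKM in S18 and S20. Dnmt1, the maintenance DNA methyltransferase, had medians of 7.72 and 2.26 FPKM, and 0.0165 and 0.0120 FPKM in S18 and S20. Ehmt2, a histone H3 methyltransferase, had medians of 6.17 and 4.85 FPKM, and 11.5 and 51.6 FPKM in S18 and S20. Dppa2, an activator of early embryonic genes, had medians of 578.7 and 460.6 FPKM, and 391.9 and 378.4 FPKM in S18 and S20. These genes were named after their values were seen. Zfp352, a gene of the 2-cell stage, had a median of 0 at both stages, and was above 1 FPKM in 5 4-cell blastomeres, with 51.2 FPKM in S20 and 0 in S18.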

How the data were processed

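The authors aligned the paired reads with STAR (2.5.1b) to mm10, kept uniquely aligned reads, counted them with HTSeq on RefSeq genes and RepeatMasker copies, and deposited FPKM tables per stage. Fragments from near-identical copies are lost by unique alignment, so values of young copies can be too low. For repeats no unit was named. Whole fragments were recovered from the steps of the deposited FPKM values. This was checked on a sample of copies seen in several blastomeres, with lengths taken from the other blastomeres. At least 99.668% of the sampled values of each blastomere came out as whole fragments within 0.05. Copies seen in few blastomeres were not part of this check. The recovery, the fold rule and the gene likeness were tested on simulated data. In the data simulated for the fold rule, blastomeres of a stage differed by fragment total and counting error only. That test thus cannot say how often the rule calls copies that vary between blastomeres as they do here. Lengths of copies seen in fewer than 3 blastomeres are the least possible.

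Of 78 samples in the labels, 36 were 4-cell and 31 8-cell blastomeres. No column name matches a label of one of them, and 5 columns of the 8-cell table are named NA. Embryo and lineage tests were not run. With no replicate samples, values are medians and ranges over blastomeres. Copies count as present above 0.

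The named copies were, per stage, the copy of each subfamily above 0 in most blastomeres, the 10 highest by median, and the 5 with the largest ratio of means each way. The members and lists were chosen with earlier results of these data known. Repeat positions and sequences were not used here. Gene positions come from RefSeq's annotation of mm10 (GRCm38.p6), matched by Entrez number. Reads carry no molecular identifiers, so intervals cover counting error only. Python 3.11.15, numpy 2.4.6, pandas 2.3.3 and scipy 1.17.1 were used. Alternatives changed the threshold for presence, the denominator, the blastomeres, the fold, the average and the scaling.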

Additional observations from a re-analysis of the deposited data

How the results depend on the processing

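No paired analysis was possible because the column names give no embryo, lineage or replicate number, and the planned comparison of stages over embryos was not run for the same reason. The median ORR1 share of repeat copies above 0 (3.64% and 2.99% at the 4-cell and 8-cell stages) stayed higher at the 4-cell stage under every alternative run. It was 2.73% and 2.23% without internal parts, 4.03% and 3.38% with interspersed repeats alone in the denominator, and 3.92% at the 4-cell stage with at least 2 fragments for presence. The number of ORR1 copies in at least 12 of 24 and 13 of 26 blastomeres (704 and 337) became 279 and 107 in at least 18 and 20, 29 and 21 in every blastomere, and 438 and 201 above an FPKM of 1. Leaving out 1 blastomere at a time gave medians of 3.59% to 3.68% and 2.98% to 2.99%, and 634 to 687 and 279 to 328 copies. The copies at least 2-fold higher at the 4-cell (895) and 8-cell stage (186) were 558 and 71 at 4-fold, 571 and 73 by medians in place of means, and 2322 and 1091 without the filter on blastomeres. In each of these settings ORR1 was above the share of all repeats toward the 4-cell stage and below it toward the 8-cell stage. Leaving out S18 and S20, chosen after seeing the data, gave a 4-cell median of 3.57% and 722 and 177 copies with a 2-fold difference. Leaving out the columns named NA gave an 8-cell median of 2.98% and 842 and 144 copies. Depth limits copies with 1 or 2 fragments, and the shallow 8-cell blastomere S57 had 238 ORR1 copies above 0.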
